A study of Mus musculus with 4 samples.

Results

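The genes described here are 10 ligands, inhibitors and receptor chains of the interleukin-1 (IL-1) family other than the IL-33 receptor, chosen by name from the 22558 genes of the count table: Il1a, Il1b, Il1rn, Il18, Il33, Il1r1, Il1r2, Il18r1, Il18rap and Il18bp. Their RNA was measured in activated lung group 2 innate lymphoid cells (ILC2s), innate lymphocytes that lack antigen receptors and secrete type 2 cytokines. The groups were C57BL/6 (WT) and ICAM-1 KO by their labels, with 2 libraries each, which asks how loss of the adhesion molecule ICAM-1 alters activated ILC2s. All mice were 6 weeks old and received 3 intranasal challenges with 0.5 µg recombinant mouse IL-33 (rmIL-33), so both groups had been given the protein that 1 of the 10 genes encodes. Lungs were taken on day 4, and each library was a pool of 4 mice, which leaves 2 pools per group and no value for a single animal. The knockout strain is B6.129S4-Icam1tm1Jcgr/J in the study's methods, a germline allele carried by every cell, so its effects on the lung around the ILC2s are included. Cells were sorted as CD45+ Lin- ST2+ CD127+, with antibodies to T cell, B cell, granulocyte, macrophage and dendritic cell proteins in the lineage mix.

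IL-1 family cytokines are alarm signals. IL-1α and IL-1β both bind the receptor IL-1R1, the antagonist encoded by Il1rn occupies that receptor without signalling, and IL-1R2 is a decoy that takes up IL-1 and lacks a signalling domain. IL-18 binds IL-18R1 together with its partner chain encoded by Il18rap, and the secreted IL-18 binding protein holds IL-18 away from it, while IL-33 acts through ST2, the product of Il1rl1, by which ILC2s are recognised and activated.

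The libraries held 24796148 to 28782471 counts. Icam1, the targeted gene, had 2579 and 2630 counts in WT and 2812 and 3453 in the other group (log2 fold change, called log2 change here, 0.33, standard error 0.108, adjusted p = 0.0745, edgeR), so its RNA was not lower. The libraries of that group are called KO-labelled pools, since the label is what names them. By flow cytometry of lung ILC2s, the study reports that ICAM-1 KO mice lack the protein, which RNA counts do not measure. ILC2 genes were abundant in every library, with 12252 to 16261 counts of Gata3 and 15443 to 26405 of Il2ra. Of 109 tested marker genes of other lung cells, 66 were higher and 2 lower in the KO-labelled pools (adjusted p under 0.05). Of all genes tested, 8.8% were higher and 4.97% lower. In bulk RNA, fewer cells of a type and less RNA per cell cannot be told apart.

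Of the 10 genes, 8 passed the filter on low values and were tested. The filter asked for a normalized count of 1 on average and 10 summed over the libraries. Il33 and Il1r1 met it only through the KO-labelled pools, with mean normalized counts of 0.636 and 2.29 in WT. Il1b, Il1rn and Il33 rose in the KO-labelled pools and Il1r2 fell, when edgeR's quasi-likelihood test was adjusted over 11711 genes (adjusted p under 0.05), and 4 did not pass. Over all genes tested, 8.8% were called higher and 4.97% lower. Of these 4, Il33 alone also changed by at least 2-fold, as did 5.47% of all genes in either direction. The groups did not overlap for 7 of the 8 tested genes, 5 of them higher and 2 lower, where 28.3% of all genes lay higher and 31.3% lower without overlap. The median log2 change of the 8 was 0.88, against 0.01 for all genes tested. These genes were chosen by family and with results of these libraries known, so their count does not stand as independent evidence.

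**Figure D1:**
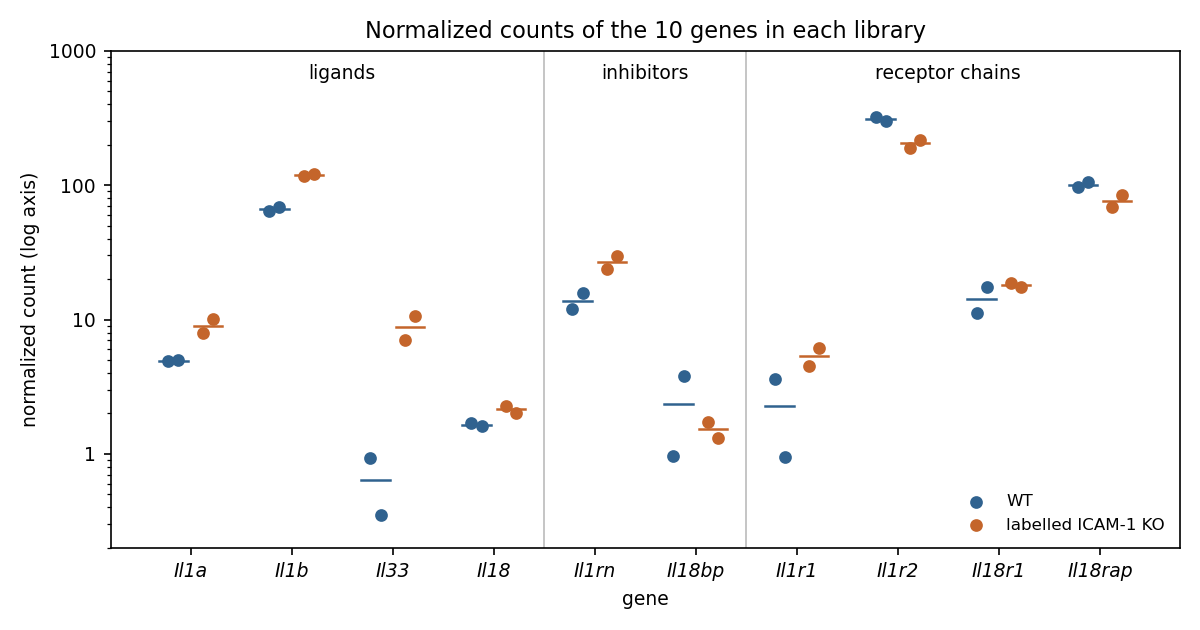
Normalized count (log axis) of each of the 10 genes in each library, with ligands, inhibitors and receptor chains set apart; points are libraries and bars are the means of 2. Il33 lies at 0.924 and 0.348 in WT and at 7.01 and 10.6 in the KO-labelled pools, and Il1r2 is the most abundant of the 10 in every library.

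**Figure D2:**
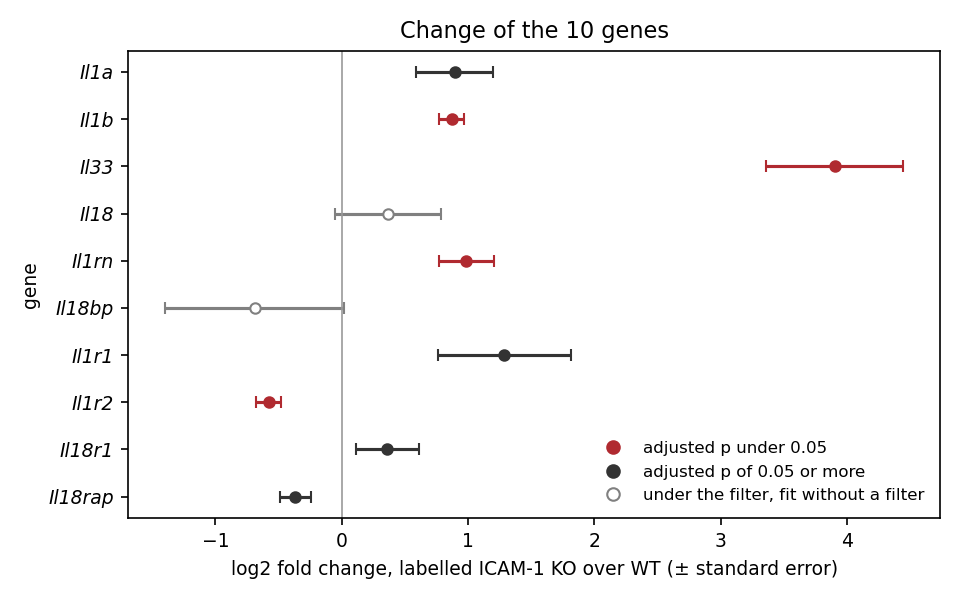
Log2 fold change of the KO-labelled pools over WT, with its standard error, for each gene; red points have an adjusted p under 0.05 and open points are genes under the filter, read from a fit without it. Il33 lies far to the right at 3.90, Il1b, Il1rn and Il1a lie between 0.87 and 0.99, and Il1r2 lies at -0.58.

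Among the ligands, Il33 had the largest change. Il33 encodes an alarmin that is stored in the nucleus of epithelial and endothelial cells and released on damage. It had 27 and 10 counts in WT against 201 and 332 in the KO-labelled pools. Both KO-labelled pools lay far above both WT libraries, although the WT level was near the lower end of what these libraries measure. Its normalized count was 0.636 ± 0.407 (SD, n = 2) in WT and 8.81 ± 2.54 (SD, n = 2) in the KO-labelled pools, a log2 change of 3.90 (standard error 0.540, adjusted p = 0.00324, edgeR). Leaving out single libraries gave log2 changes of Il33 from 3.33, without WT replicate 2, to 4.81, without WT replicate 1, and it passed the threshold in each of these fits. On the scale of log2(normalized count + 1), which understates the change of a low gene, it was 2.58. Il33 spans 29925114 to 29960718 of chromosome 19 (mm10, plus strand) and overlaps no other annotated gene.

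RefSeq gives Il33 2 transcription starts. The stretches before them are shown since they are separate promoters of the gene with the largest change, with TATAAA in capitals (GRCm38.p6, chr19:29924863-29925112 and chr19:29945540-29945789, both plus strand).
Il33 start 1: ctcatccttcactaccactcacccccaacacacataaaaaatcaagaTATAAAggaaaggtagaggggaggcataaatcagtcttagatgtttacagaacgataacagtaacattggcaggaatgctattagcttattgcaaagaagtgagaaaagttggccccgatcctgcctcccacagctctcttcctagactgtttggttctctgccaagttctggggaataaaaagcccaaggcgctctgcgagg
Il33 start 2: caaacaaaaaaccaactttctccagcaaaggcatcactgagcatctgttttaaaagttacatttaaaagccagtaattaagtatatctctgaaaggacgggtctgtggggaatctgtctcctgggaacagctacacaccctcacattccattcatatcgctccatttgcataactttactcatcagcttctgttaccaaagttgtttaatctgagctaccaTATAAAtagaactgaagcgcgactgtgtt
The TATAAA match lay 203 bases before the first start and 29 bases before the second. On either strand, 12.4% of all 250-base windows hold it. Counts per gene do not say which start was used.

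Il1b was the most abundant of the ligands. IL-1β is made as an inactive precursor, mostly by myeloid cells, and is cut to its active form by caspase-1. Il1b had 1955 and 2166 counts in WT and 3387 and 3804 in the KO-labelled pools, so the groups lay far apart and the libraries of each group lay close together. Normalized counts averaged 66.6 ± 2.86 (SD, n = 2) against 119 ± 2.56 (SD, n = 2), a 1.83-fold rise (log2 change 0.87, standard error 0.102, adjusted p = 0.00149, edgeR). Il1b lies on chromosome 2 from 129364570 to 129371139 on the minus strand. The antisense gene Il1bos overlaps it with 0 to 19 counts, and the use of strand in counting is not given in the sources used here. The bases before its start are shown because Il1b rose and has a single start in RefSeq (GRCm38.p6, chr2:129371140-129371389, minus strand, TATAAA in capitals).
Il1b: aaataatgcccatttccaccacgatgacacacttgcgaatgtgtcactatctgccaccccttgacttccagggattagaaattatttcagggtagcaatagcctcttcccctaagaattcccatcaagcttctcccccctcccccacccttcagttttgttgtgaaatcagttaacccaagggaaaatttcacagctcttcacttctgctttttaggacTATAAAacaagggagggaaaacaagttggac
The match lay 31 bases before the start.

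Il1a, whose product acts on the same receptor and is active without cutting, lies 54.6 kb from Il1b on the same strand, from 129299610 to 129309972. It had 148 and 156 counts in WT and 226 and 314 in the KO-labelled pools. The groups did not overlap. The mean normalized count was 4.94 ± 0.0511 (SD, n = 2) against 8.95 ± 1.53 (SD, n = 2), a log2 change of 0.89 (standard error 0.302) that did not pass the threshold (adjusted p = 0.0820, edgeR). Its fold change was thus close in size to that of Il1b, with a wider error. Gm14023 overlaps Il1a on the other strand with 8.4 to 17.2 counts.

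Il18, a cytokine that epithelial cells and macrophages store as a precursor, was low. It had 50 and 50 counts in WT and 65 and 62 in the KO-labelled pools, under the filter on summed normalized counts. In a fit without that filter its log2 change was 0.37 (standard error 0.419, adjusted p = 0.670, edgeR). Il18 lies on chromosome 9 from 50554827 to 50581840 on the plus strand, 29.5 Mb from Icam1, and overlaps Bco2 and Tex12 on the other strand.

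Of the inhibitors, Il1rn rose and Il18bp stayed low. Il1rn had 360 and 493 counts in WT and 686 and 929 in the KO-labelled pools. Both KO-labelled pools lay above both WT libraries, and the libraries of each group differed from each other as well. Its normalized count was 13.8 ± 2.63 (SD, n = 2) against 26.7 ± 4.09 (SD, n = 2), a 1.98-fold rise (log2 change 0.99, standard error 0.217, adjusted p = 0.0198, edgeR). The call was lost without WT replicate 1 (adjusted p = 0.0949, edgeR), without ICAM-1 KO replicate 2 (adjusted p = 0.0718, edgeR) and without the filter on low counts (adjusted p = 0.0799, edgeR). Il1rn lies on chromosome 2 from 24336853 to 24351494 on the plus strand, far from Il1a and Il1b, and overlaps no other annotated gene.

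Il1rn has several starts, from which a secreted and an intracellular antagonist are known to be made. RefSeq lists 3, and the stretches before 2 of them are shown, numbered in the order printed (GRCm38.p6, chr2:24336610-24336852 and chr2:24345041-24345287, plus strand). Where stretches overlapped, only the one with the most bases was kept. Both stop at the first annotated exon base, short of the start. Capitals mark TGAGTCA, a match to the AP-1 motif TGANTCA.
Il1rn start 1: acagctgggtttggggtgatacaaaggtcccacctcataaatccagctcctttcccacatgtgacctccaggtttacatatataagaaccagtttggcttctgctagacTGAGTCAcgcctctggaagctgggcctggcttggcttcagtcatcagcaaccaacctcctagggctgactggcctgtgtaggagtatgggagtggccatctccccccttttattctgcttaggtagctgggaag
Il1rn start 2: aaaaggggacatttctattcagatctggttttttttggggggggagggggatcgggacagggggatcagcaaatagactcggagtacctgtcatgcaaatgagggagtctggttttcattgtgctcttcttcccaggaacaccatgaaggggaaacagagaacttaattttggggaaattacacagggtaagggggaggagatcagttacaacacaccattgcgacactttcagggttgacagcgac
The match lay 141 bases before start 1, and 6.64% of all windows of that length hold the motif. The second stretch held none of the 5 motifs searched. Those were the AP-1 motif TGANTCA, the TATA motif TATAAA, the PU.1 core GAGGAA, the GATA motif AGATAA and the NF-kB consensus, each on both strands.

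Il18bp had 28 and 118 counts in WT and 49 and 40 in the KO-labelled pools. The WT libraries lay on both sides of the others, so the groups overlapped. Without the filter its log2 change was -0.69 (standard error 0.708, adjusted p = 0.626, edgeR). It lies on chromosome 7 from 102014885 to 102018690 on the minus strand, overlapping Numa1 on the other strand, which had 3108 to 4309 counts. Some of the counts of Il18bp were not whole, and those shown here are rounded.

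Il1r2, the decoy receptor, was the most abundant of the 10 genes and the only one of them called lower. It had 9715 and 9536 counts in WT and 5479 and 6859 in the KO-labelled pools. Both WT libraries lay well above the other group. Normalized counts averaged 311 ± 13.3 (SD, n = 2) against 204 ± 20.0 (SD, n = 2), 1.49-fold lower (log2 change -0.58, standard error 0.0992, adjusted p = 0.00796, edgeR). Without WT replicate 1 the call was lost by a small margin (log2 change -0.54, adjusted p = 0.0512, edgeR). Il1r2 lies on chromosome 1 from 40074079 to 40125231 on the plus strand. Gm37347 on the same strand and Gm16894 on the other overlap it, with 15 to 76 counts. The stretch before its RefSeq start is shown as that of the one gene that fell (GRCm38.p6, chr1:40085843-40085984, plus strand). It stops at the first annotated exon base, short of the RefSeq start, so the bases next to that start were not searched. The RefSeq start, at 40086093, lies inside the annotated gene, which begins at 40074079. The bases before that annotated start were not searched either. The bases shown held none of the motifs.
Il1r2: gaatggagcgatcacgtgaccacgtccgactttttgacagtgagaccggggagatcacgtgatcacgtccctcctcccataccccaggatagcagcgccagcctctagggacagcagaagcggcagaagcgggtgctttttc

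Il1r1, the signalling receptor for IL-1, was close to the bottom of the tested genes. It had 109 and 29 counts in WT and 130 and 193 in the KO-labelled pools. The WT libraries differed from each other more than WT replicate 1 differed from the other group. The mean normalized count was 2.29 ± 1.90 (SD, n = 2) against 5.36 ± 1.16 (SD, n = 2), with a log2 change of 1.29 (standard error 0.526, adjusted p = 0.138, edgeR). That value ran from 0.60 to 2.57 when single libraries were left out. Il1r1 lies from 40225080 to 40317257 on the plus strand of chromosome 1, and Gm38070 within it had 0 to 29 counts.

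Neither chain of the IL-18 receptor passed the test. Il18rap, the signalling partner chain, had 2922 and 3317 counts in WT and 1994 and 2630 in the KO-labelled pools. The groups did not overlap. Its normalized count was 101 ± 6.06 (SD, n = 2) against 76.5 ± 10.3 (SD, n = 2), a log2 change of -0.37 (standard error 0.124) that did not pass (adjusted p = 0.0809, edgeR). It did pass with DESeq2 (adjusted p = 0.0386) and without ICAM-1 KO replicate 2 (log2 change -0.53, adjusted p = 0.0288, edgeR). Il18r1, the chain that binds IL-18, had 335 and 548 counts in WT and 536 and 544 in the KO-labelled pools. WT replicate 2 lay among the KO-labelled pools, and the log2 change was 0.36 (standard error 0.247, adjusted p = 0.362, edgeR). Il18r1 spans 40465552 to 40500854 and Il18rap 40515362 to 40551705 on the plus strand of chromosome 1, and neither overlaps another annotated gene.

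Compared per length as RPKM (counts scaled to the exon length of the gene and to the total of the library), the order of levels in WT was led by Il1r2 at a mean of 180, followed by Il1b at 38.5 and Il18rap at 16.5. Il18r1 (3.25), Il1a (2.75) and Il1rn (2.74) came next and overlapped as neighbours. Il18 had a mean RPKM of 1.73, Il18bp 0.849, Il1r1 0.394 and Il33 0.232, and of these Il18bp with Il1r1 and Il1r1 with Il33 overlapped. In the KO-labelled pools the same 3 genes led, with mean RPKMs of 123 for Il1r2, 72.1 for Il1b and 13.0 for Il18rap. Il1rn (5.56) overlapped Il1a (5.20), and Il18r1 (4.30) overlapped Il33 (3.50), which had moved from place 10 to place 7. Il18 (2.37), Il1r1 (0.964) and Il18bp (0.568) closed the order. Il1r2 lay above 96.7% and Il1b above 90.1% of the tested genes by mean RPKM, while Il1r1 lay above 3.25%.

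Il1r2 made up 74.4% and 71.4% of the summed RPKM of the 10 genes in WT and 52.6% and 54.2% in the KO-labelled pools. The share of Il1b was 15.0% and 16.2% in WT and 32.5% and 30.1% in the KO-labelled pools. The decoy receptor thus held most of the RNA of these genes in every library, with a smaller share beside more Il1b in the KO-labelled pools.

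Ratios within a library do not depend on how libraries are scaled. Per length, Il1rn amounted to 0.0592 and 0.0734 of Il1a and Il1b together in WT and to 0.0656 and 0.0780 in the KO-labelled pools. The groups overlapped in this ratio of antagonist to ligands. The ratio of Il18rap to Il18r1 was 6.21 and 4.31 in WT and 2.65 and 3.44 in the KO-labelled pools, without overlap. The ratio of Il1r2 to Il1r1 was 295 and 1060 in WT and 140 and 118 in the KO-labelled pools, and the value of 1060 rests on the 29 counts of Il1r1 in WT replicate 2. The ratio of Il18bp to Il18 was 0.194 and 0.797 in WT and 0.258 and 0.222 in the KO-labelled pools, with overlap. With 2 libraries against 2, an exact permutation test cannot reach a p under 0.05, so these ratios are descriptions.

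The receptor genes lie in a row of 6 on chromosome 1, Il1r2, Il1r1, Il1rl2, Il1rl1, Il18r1 and Il18rap, all on the plus strand within 477.6 kb. High and low levels lay side by side along the row. Il1rl1, which encodes ST2, the protein used in the sort, had RPKMs of 101 and 116 in WT and 131 and 126 in the KO-labelled pools, while its neighbour Il1rl2, the receptor for IL-36, had 177 to 317 counts. Neither passed the test, with log2 changes of 0.21 (adjusted p = 0.173, edgeR) for Il1rl1 and -0.25 (adjusted p = 0.662, edgeR) for Il1rl2. Il1r2 was therefore the only gene of the row that was called.

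**Figure D3:**
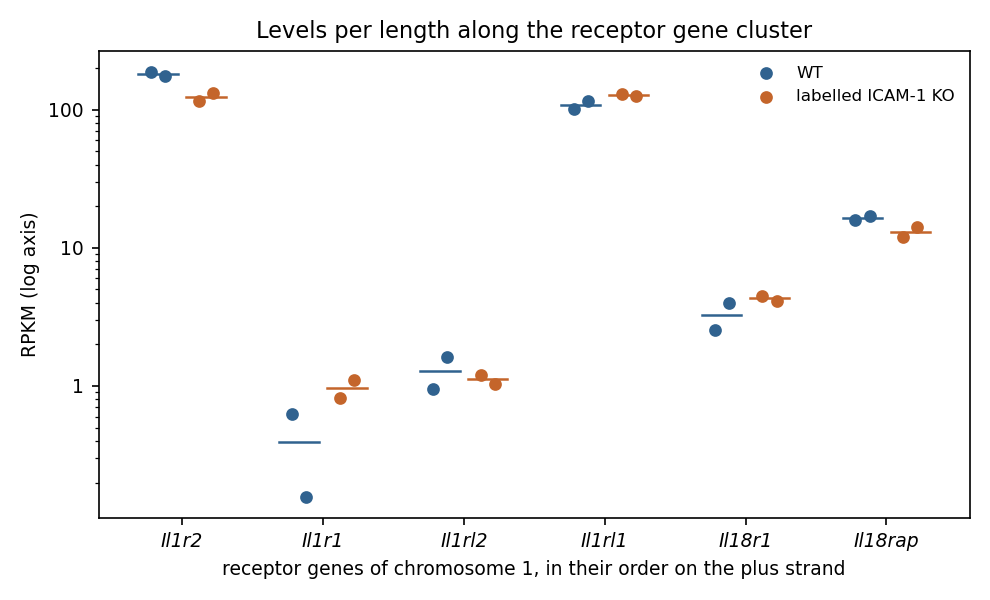
RPKM (log axis) of the 6 receptor genes of chromosome 1 in their order along the plus strand; points are libraries and bars are the means of 2. Il1r2 and Il1rl1 stand above 100 in every library, while Il1r1 between them stays at 1.10 or below.

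Other genes of the pathway were read against the same background of 8.8% of all tested genes called higher and 4.97% called lower. Of the rest of the IL-1 family, 15 symbols were listed, 4 genes were tested and 0 passed with edgeR, where 2 had an unadjusted p under 0.05, against 1 lower with DESeq2 and 0 with limma. These were Il1rl1, Il1rl2, Il1rap, the shared partner chain (312 and 444 counts in WT, 623 and 479 in the KO-labelled pools, adjusted p = 0.143, edgeR), and Sigirr, an inhibitory receptor (3516 and 3652 against 2731 and 2834, adjusted p = 0.0703, edgeR).

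Of 20 genes for maturation and release of the cytokines, 17 were tested, 3 were higher, 1 was lower and 13 did not pass, beside 8.8% and 4.97% of all genes tested. The median log2 change was -0.11. Casp4, which encodes the caspase that senses bacterial lipopolysaccharide inside the cell, had 821 and 888 counts in WT and 312 and 317 in the KO-labelled pools, a log2 change of -1.37 (standard error 0.192, adjusted p = 0.00329, edgeR). Casp4 lies on chromosome 9, as Icam1 does, 15.7 Mb from it. Mefv, which encodes the inflammasome sensor pyrin, had 67 and 28 counts in WT and 133 and 197 in the KO-labelled pools (log2 change 1.86, adjusted p = 0.0358, edgeR). With normalized counts of 2.245 and 0.918 in WT, Mefv met the filter only through the KO-labelled pools. Ctss, a lysosomal protease of antigen-presenting cells, rose by a log2 change of 0.87 (adjusted p = 0.0131, edgeR), and Ninj1, which ruptures the membrane of dying cells, by 0.49 (adjusted p = 0.0452, edgeR). The abundant Capn2, Casp8 and Pycard had log2 changes of -0.15, -0.22 and 0.20 and did not pass.

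Of 21 genes of the signalling route that the family's receptors share, 19 were tested, 3 were higher and 0 lower with edgeR, beside 8.8% and 4.97% of all genes tested. At an unadjusted p under 0.05, 6 were higher and 3 lower. DESeq2 called 3 higher and 2 lower, and limma 3 higher and 1 lower. The median log2 change was -0.01. Irak2, a kinase-like adaptor of the receptor complex, had 1270 and 1300 counts in WT and 1739 and 1830 in the KO-labelled pools (log2 change 0.54, standard error 0.119, adjusted p = 0.0198, edgeR). Peli1, a ubiquitin ligase, had a log2 change of 0.42 (adjusted p = 0.0354, edgeR). Ube2n, Ube2v1 and Ikbkb, the most abundant of the others, did not pass. The 7 pathway genes called became 2 without WT replicate 2, 1 without WT replicate 1 and 4 without ICAM-1 KO replicate 2.

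Markers of other lung cells moved beside these genes, although the sort was gated against many of them and the study states a purity above 95%. The counts of markers called stand beside 8.8% of all genes tested called higher and 4.97% called lower. Some markers, such as Sftpb, met the filter only through the pools where they were high. With at least 10 counts asked of every library, 61 markers were called, against 68 in the main fit. Beside Il33, the summed normalized count of 17 alveolar epithelium markers was 169 and 156 in WT and 646 and 1160 in the KO-labelled pools, and 8 of 12 tested were higher. Sftpc, the surfactant gene that defines alveolar type II cells, was counted 731 and 17 times in WT and 7290 and 16847 times in the other group, and Sftpb was at 0 in WT replicate 2. The 14 endothelium markers summed to 232 and 230 in WT and 616 and 649 in the KO-labelled pools, with all 14 higher. The part of epithelial and endothelial RNA in the Il33 result was not tested.

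Beside Il1b, Il1a and Il1rn, which myeloid cells also express, the 19 macrophage and monocyte markers summed to 566 and 579 in WT and 1006 and 1225 in the KO-labelled pools, with 13 of 17 tested higher. Csf1r, the receptor for macrophage colony-stimulating factor, had 818 and 694 counts against 1369 and 1825, and Mrc1 had 221 and 257 against 730 and 641. Adgre1, with 237 and 209 counts against 299 and 466, did not pass (adjusted p = 0.0840, edgeR). The 10 neutrophil markers summed to 83.1 and 85.6 against 204 and 157, with 5 of 7 tested higher. S100a8, with 559 and 523 counts against 1461 and 971, and S100a9, with 756 and 713 against 1893 and 1594, were among the higher ones. Ly6g, which is at 0 in WT replicate 1, had at most 14 counts and was not tested. The 9 dendritic cell markers summed to 51.4 and 60.4 against 101 and 109, with 4 of 6 tested higher. Relative to the WT mean, Il1b was at 1.77 and 1.82 and the macrophage and monocyte sum at 1.76 and 2.14 in the KO-labelled pools. Ccr2 and Lyz2 weighed most in that sum. Lyz2 had a log2 change of 1.46, while Ccr2, at 0.32, did not pass (adjusted p = 0.0563, edgeR). The part of myeloid RNA in the results for Il1b, Il1a and Il1rn was not tested.

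Beside Il1r2 and Il18rap, the 13 ILC2 markers summed to 7631 and 7947 in WT and 6313 and 6551 in the KO-labelled pools, with 1 higher and 4 lower. Relative to the WT mean the ILC2 sum was at 0.811 and 0.841 and Il1r2 at 0.611 and 0.702. The lower ILC2 markers were Arg1, Id2, Il2ra and Hs3st1, of which Arg1 and Id2 had the most counts of the list in WT. Klrg1 was higher (log2 change 0.41), and Il7r (0.28) did not pass. The median log2 change of the 13 was -0.06. The 7 regulatory T cell markers, of cells that can also carry ST2 and Il1r2, summed to 699 and 968 against 1100 and 1278, with 3 of 6 tested higher. Of these, Foxp3 had 1282 and 1703 counts against 4528 and 5673, and Ikzf2 had 823 and 813 against 2015 and 2516. Ctla4, with 8469 and 12307 counts against 11218 and 13637, overlapped between the groups and did not pass (adjusted p = 0.164, edgeR). Ctla4 and Tnfrsf18 weighed most in the regulatory T cell sum, and Tnfrsf18 did not pass either (adjusted p = 0.839, edgeR). The 10 T cell markers summed to 740 and 828 against 1133 and 1335, with 6 higher. Among them Cd3d was higher, with 579 and 1190 counts against 2052 and 2695. Cd3e, with 933 and 1599 against 1079 and 1636, overlapped and did not pass (adjusted p = 0.690, edgeR). Cd3g lay lower, with 3438 and 4017 against 2336 and 3359, and did not pass (adjusted p = 0.158, edgeR). The part of these cells in the results for Il1r2 and Il18rap was not tested.

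**Figure D4:**
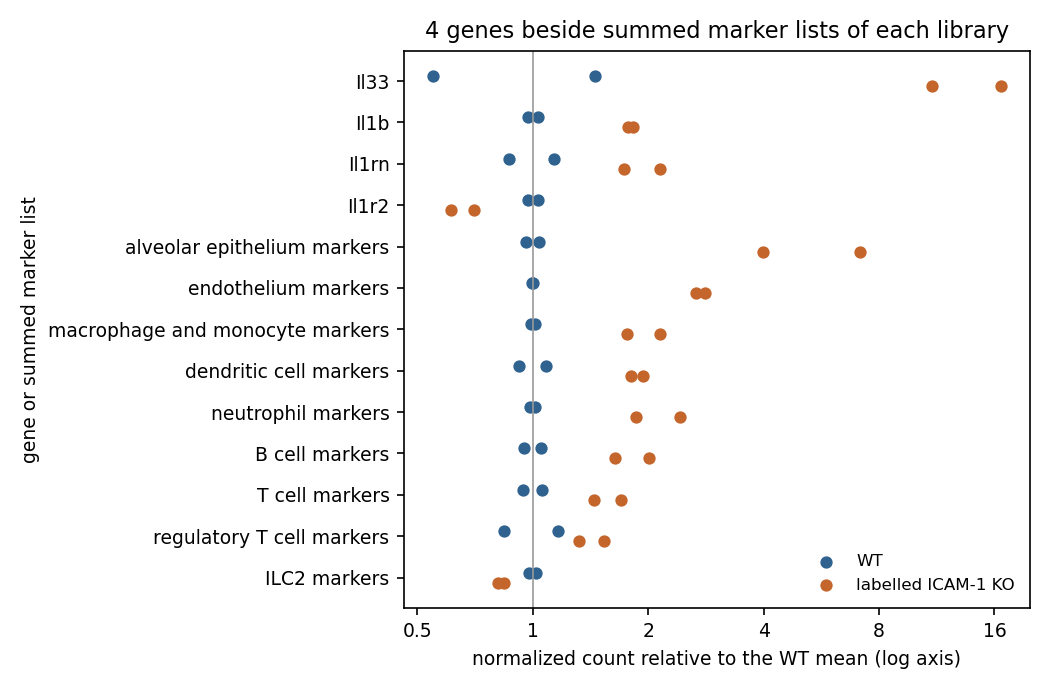
Normalized count of 4 of the genes, and summed normalized counts of marker lists, in each library relative to the WT mean (log axis); points are libraries. Il33 and the alveolar epithelium sum lie farthest to the right in the KO-labelled pools, and Il1r2 and the ILC2 sum lie to the left of 1.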

How the data were processed

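RNA of 2 WT and 2 ICAM-1 KO libraries of sorted lung ILC2s was compared, with groups and replicate numbers from the sample labels. The authors made cDNA with a SMARTer ultra-low-input kit, sequenced it on a NextSeq instrument, aligned the reads with STAR to mm10 and derived gene counts by Partek's E/M estimate on GENCODE annotation. The deposited expected counts cover 22558 genes, are not normalized, and are whole (within 0.01) for 61.1% of values, since shared reads are split. The deposited normalized signal, called the normalized count here, covers 18324 genes and equals the count plus 1 multiplied by 1 upper quartile factor per library. The submitters' notes give STAR 3.5.3 and the study's methods another version, and which was run was not settled here.

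The expected counts were rounded and tested with edgeR 4.0.16 in R 4.3.3 (glmQLFit with legacy set to FALSE, upper quartile factors, no covariate), which was first tested on simulated data. Testing kept the 11711 genes whose normalized count averaged 1 or more and summed to 10 or more, with Benjamini-Hochberg adjustment over all of them. An adjusted p under 0.05 made a call. RPKM was computed from the counts and the exon length in GENCODE M21. Promoter stretches, the bases before a RefSeq start up to the first annotated exon base, came from RefSeq (GRCm38.p6), which has an entry for all 10 genes. The p-values measure the spread between pools, and without molecular identifiers, reads do not count molecules.

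All 10 genes are named, with Icam1, every called gene and up to 3 abundant others of each pathway list, and leading markers of some lists set beside a result. A called gene of the pathway lists is not reported here by name. Genes and lists were chosen with earlier results of these data known. The alternatives were TMM factors, DESeq2 1.42.0, no filter, 10 counts in every library, filterByExpr, limma 3.58.1 on log2(normalized count + 1), the older quasi-likelihood fit, a replicate block and each library left out.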

Additional observations from a re-analysis of the deposited data

How the results depend on the processing

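No log2 fold change of the 8 tested genes changed direction under any of the 12 alternatives, and Il1b and Il33 passed the threshold in all of them. At an adjusted p under 0.05, 4 of the genes passed, and 2 to 4 did when single libraries were left out, the lowest without WT replicate 1. In those fits a lone library is assumed to vary like the other group. The genes called at 2-fold numbered 641 of all tested, 312 without a filter on low counts, 1612 with no fold threshold, and 388 to 676 with a library left out. The pathway genes called numbered 7, against 11 with DESeq2, 1 without a filter, 3 with filterByExpr, 4 with the older quasi-likelihood fit and 1 to 7 with a library left out. The called markers of other cells numbered 68, against 38 without a filter and 44 to 70 with a library left out. The cause of these differences was not tested. The genotypes share replicate numbers but not animals, and the deviations of same-numbered libraries correlated at -0.029. With the replicate block 668 genes were called, and no call of the 10 genes changed. With 10 to 332 counts of Il33 and 29 to 193 of Il1r1, depth limits how closely these changes can be given.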

Other observations

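Il1f9 and Nlrc4 were among the genes of the pathway lists that lay under the filter on low values and were not tested. Il1f9, which encodes the epithelial cytokine IL-36γ, had 8 and 8 counts in WT and 95 and 33 in the KO-labelled pools. Nlrc4, which encodes a component of an inflammasome that responds to bacterial flagellin, had 10 and 28 counts in WT and 121 and 82 in the KO-labelled pools. Il1f9 and Nlrc4 were chosen after their values were seen, and neither passed the threshold in a fit without that filter (edgeR). Nlrp1a, Nlrp1b, Peli2 and Peli3 also lay under it. The mean normalized count was lower in the KO-labelled pools for Nlrp1a and Nlrp1b, with overlapping groups. Nlrp1a had 7 and 36 counts in WT against 2 and 14, and Nlrp1b 90 and 67 against 68 and 62. Peli2 had 5 and 1 counts in WT against 33 and 15, and Peli3 at most 4. Of the 13 marker lists of other cells, 12 had a higher mean summed level in the KO-labelled pools, and the eosinophil list alone was lower, at 103 and 74.9 in WT against 36.0 and 57.7. The groups overlapped for the airway epithelium sum, at 385 and 174 in WT against 186 and 591, and for the mesenchyme sum. Of the tested eosinophil markers, 3 were higher and 2 lower (adjusted p under 0.05, edgeR). Among the lists not set beside a gene, 5 of 7 tested B cell markers, 3 of 6 NK cell and ILC1 markers, 1 of 6 airway epithelium markers and 1 of 7 basophil and mast cell markers were higher with edgeR, beside 8.8% of all genes tested. Of the 6 tested mesenchyme markers 0 passed with edgeR, DESeq2 or limma and 2 had an unadjusted p under 0.05 in edgeR, with summed normalized counts of 17.7 and 50.3 in WT and 43.6 and 86.1 in the KO-labelled pools.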
